A study of Homo sapiens with 8 samples.

Results

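Homeobox genes encode transcription factors that bind DNA through a conserved homeodomain and lay out the body plan, the nervous system, the skeleton and many organs of the embryo. The 50 genes described here are homeobox factors outside the HOX clusters: the LIM-homeodomain genes LHX1 to LHX6, LHX8, LHX9 and ISL1, SIX2, SIX3 and SIX6, and members of the NKX, DLX, MSX, BARX, OTX, EN, GBX, EVX, CDX, IRX, POU4 and ONECUT families. They were chosen by name as a list of classic Polycomb targets, with earlier results of these data known. Where a gene had several probe sets, the brightest on average was used. All 50 were named on the array, out of 14884 named genes.

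Expression was measured on microarrays in SK-ES1 and A673, established human cell lines of Ewing sarcoma, a tumour of bone and soft tissue driven by a fusion such as EWSR1-FLI1. The 4 groups, of 2 arrays each, were SK-ES1 with a short hairpin RNA against RING1B (shRING1B), SK-ES1 with a hairpin against GFP (shGFP), A673 with shRING1B and A673 with shGFP. The labels name each hairpin by its target only, and each group is 1 cell line, so every statement on a line concerns that line. Nothing in the labels says that the 2 arrays of a group hold separate cultures. The p-values therefore rest on the spread between these arrays alone, which may be technical. RNF2, which encodes RING1B, was not analysed here, and the hairpin labels thus had no check against their target.

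RING1B is a ubiquitin ligase of Polycomb repressive complex 1, which together with Polycomb repressive complex 2 marks histones at the CpG-rich promoters of developmental genes and is best known for keeping them silent. Homeobox genes outside the HOX clusters are among the best known of these targets in embryonic stem cells. Polycomb binding was not measured here. RING1B is linked with EWSR1-FLI1 in the title of the series, and the comparison of hairpins asks how such genes respond when RING1B is targeted.

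Promoter sequences of 34 of the 50 genes were matched by symbol in RefSeq windows of GRCh38.p14 that run from 250 bases before to 50 bases after the start of the gene. The 34 windows held a median of 30 CG dinucleotides (range 9 to 50), against a median of 14 over all 35116 windows of that set. The set does not hold every gene and was not filtered by type of gene. Of the 34, 32 held 14 or more, against 17668 of all 35116. The letters GGAA, the core of the sequence that ETS factors such as FLI1 bind, were present on either strand in 29 of 34 windows (85.3%) and in 95.5% of all windows. The tandem GGAAGGAA, which contains that core, was present in 0 of 34 windows and in 3.67% of all windows. These counts describe letters in a short window and say nothing of whether a factor binds there.

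The 250 bases upstream of the start are printed for 5 genes, 5′ to 3′ on the strand of the gene, with CG dinucleotides in capitals. OTX2 (chr14:56810480-56810729, minus strand) is shown because it differed most between the lines and had the fewest CG dinucleotides of the matched windows. EN2 (chr7:155457879-155458128, plus strand) had the most. DLX1 (chr2:172085257-172085506, plus strand) and DLX2 (chr2:172102901-172103150, minus strand) are neighbours on chromosome 2 in opposite orientation that were both lower in SK-ES1. LHX9 (chr1:197912214-197912463, plus strand) was among the genes that fell with shRING1B in A673.
OTX2: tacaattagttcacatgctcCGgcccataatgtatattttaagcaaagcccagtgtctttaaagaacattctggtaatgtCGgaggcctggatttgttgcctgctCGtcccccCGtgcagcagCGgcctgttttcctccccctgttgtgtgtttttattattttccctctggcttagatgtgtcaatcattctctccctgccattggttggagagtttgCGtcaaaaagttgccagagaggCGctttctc
EN2: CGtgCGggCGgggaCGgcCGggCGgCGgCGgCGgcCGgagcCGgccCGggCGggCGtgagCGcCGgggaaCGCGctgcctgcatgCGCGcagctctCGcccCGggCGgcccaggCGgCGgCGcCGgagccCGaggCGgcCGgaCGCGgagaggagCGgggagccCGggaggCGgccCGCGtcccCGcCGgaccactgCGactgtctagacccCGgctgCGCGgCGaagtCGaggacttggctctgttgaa
DLX1: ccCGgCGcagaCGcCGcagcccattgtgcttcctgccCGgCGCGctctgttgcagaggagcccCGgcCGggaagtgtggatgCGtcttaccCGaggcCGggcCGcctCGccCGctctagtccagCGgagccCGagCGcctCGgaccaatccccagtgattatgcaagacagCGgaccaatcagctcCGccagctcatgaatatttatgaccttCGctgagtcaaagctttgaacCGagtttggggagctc
DLX2: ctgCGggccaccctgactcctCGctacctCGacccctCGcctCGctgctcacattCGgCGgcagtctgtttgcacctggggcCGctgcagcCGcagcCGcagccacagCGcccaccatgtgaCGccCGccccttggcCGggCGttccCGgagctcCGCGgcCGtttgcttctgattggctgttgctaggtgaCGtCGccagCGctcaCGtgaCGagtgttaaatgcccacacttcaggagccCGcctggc
LHX9: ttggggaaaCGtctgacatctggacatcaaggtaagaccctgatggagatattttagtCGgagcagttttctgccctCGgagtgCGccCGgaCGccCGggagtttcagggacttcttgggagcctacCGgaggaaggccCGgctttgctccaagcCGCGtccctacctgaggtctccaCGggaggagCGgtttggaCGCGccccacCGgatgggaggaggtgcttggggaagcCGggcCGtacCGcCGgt
The OTX2 stretch held 7 CG dinucleotides in 250 bases, the LHX9 stretch 20, the DLX1 stretch 23, the DLX2 stretch 25 and the EN2 stretch 45.

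All values below are log2 expression values as deposited, and differences are on the same log2 scale, where 1 is a 2-fold difference. Adjusted p-values come from limma, fitted to all 8 arrays, with Benjamini-Hochberg adjustment across all 14884 genes. Genes with an adjusted p under 0.05 are referred to as called. Values of different probe sets were not compared with each other. The median of all probe sets lay between 4.01 and 4.1 on the 8 arrays, and 38 of the 50 genes lay above it on every array, 10 on some arrays and 2 (LHX4 and ONECUT1) on none. Per array, 41 to 46 of the 50 lay above it, against 10632 to 10851 of all 14884 genes. Lying above it is thus usual for a named gene. Of the Ewing sarcoma markers, CD99, NKX2-2, STEAP1, FLI1, CCND1 and BCL11B, 6 of 8 listed, were measured and lay above it on all 8 arrays. In bulk samples such as these, fewer cells of a kind and less RNA per cell cannot be told apart.

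The cell line set most of the summed variance of these factors. The first principal component of the 50 genes held 93.2% of their variance and separated the 4 SK-ES1 arrays from the 4 A673 arrays. Values were centred but not scaled per gene, so genes with large line differences, such as OTX2 (-5.65 under shGFP), weigh most in that component. It does not show that most of the 50 genes differed between the lines. Across the 50 genes, arrays of SK-ES1 and A673 correlated at 0.586 to 0.629, and the 2 arrays within a group at 0.982 to 0.990. Over all 14884 genes, arrays of SK-ES1 and A673 correlated at 0.935 to 0.940. Genes are not independent replicates, and these correlations share the levels of the probe sets.

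**Figure D1:**
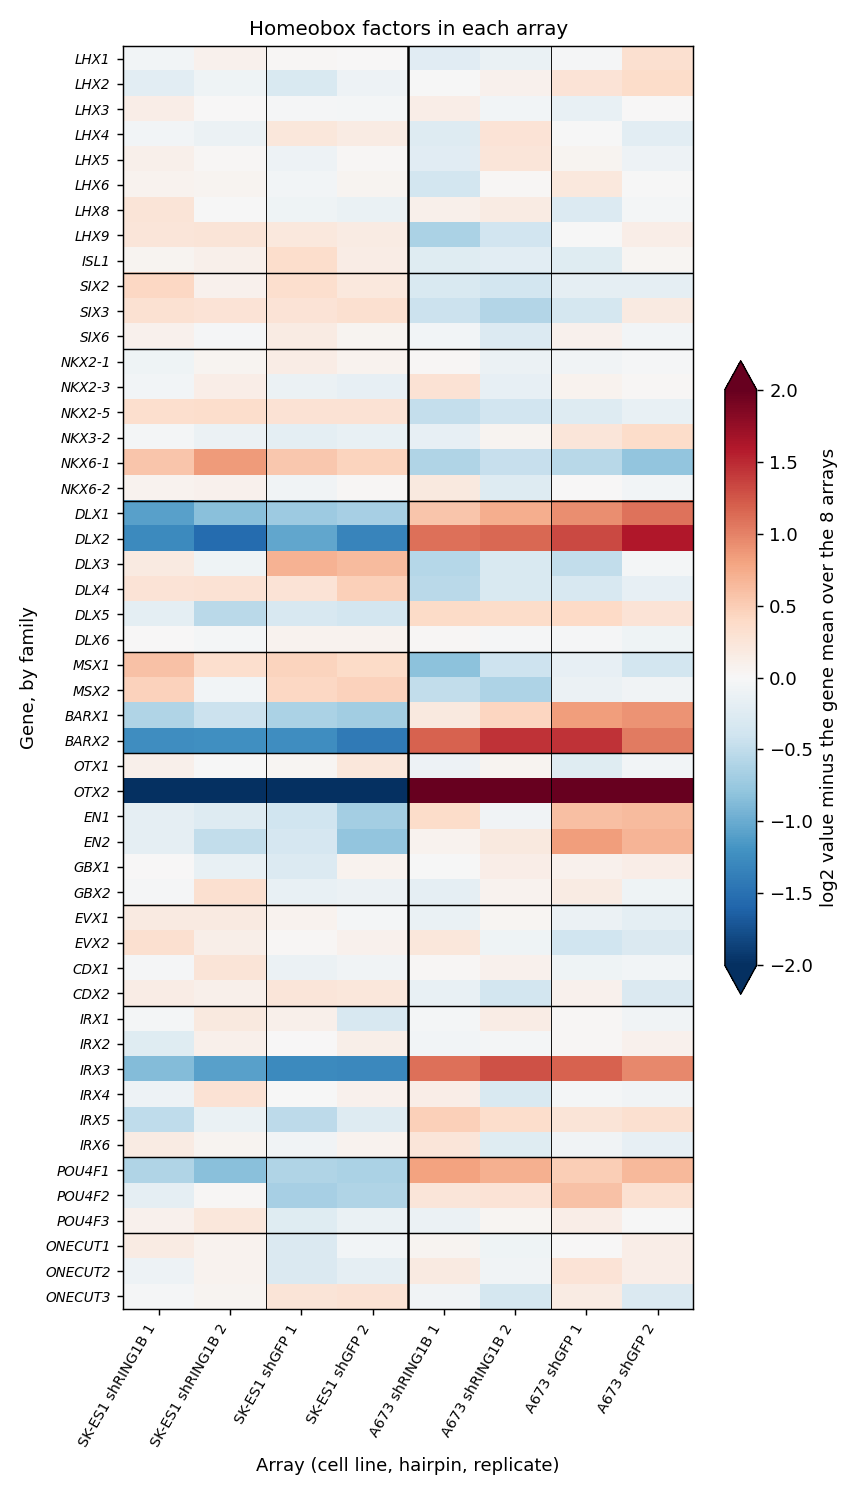
Each row is 1 of the 50 genes, grouped by family, and each column is 1 array. Colour gives the log2 value minus the mean of the gene over the 8 arrays, limited to 2 on either side. The SK-ES1 and A673 columns differ for OTX2, BARX2, DLX1, DLX2 and IRX3, while columns of the same line look alike.

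Under shGFP, some of these factors differed in level between the lines. Most lay above the median of all probe sets in both lines, as most named genes did on each array. OTX2, BARX2, DLX2, IRX3, DLX1 and BARX1 were lower in SK-ES1 by more than 1.5 on the log2 scale, and NKX6-1, DLX3, MSX1 and DLX4 were higher by 0.62 to 1.16. Of the 50 genes, limma called 22, of which 7 were higher in SK-ES1 and 15 lower. Over all 14884 genes 30.7% were called, 13.7% higher and 17% lower. The median difference of the 50 genes was -0.01, against 0.01 over all genes, and its sign turned with quantile normalization repeated (0.0066).

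Listed cell type markers also differed between the lines under shGFP. All 6 measured Ewing sarcoma markers were below 0 in SK-ES1 minus A673, with a median of -0.43, and limma called CD99 (-0.80, adjusted p = 0.000747), NKX2-2 (-0.66, adjusted p = 0.00103) and BCL11B (-0.62, adjusted p = 0.00413) lower in SK-ES1. Of the 3 measured fibroblast markers, LUM (3.37, adjusted p = 9.37e-07) and DCN (0.80, adjusted p = 0.00107) were higher in SK-ES1 and THY1 (-1.21, adjusted p = 8.83e-05) was lower. The endothelial marker KDR was lower by 0.56 (adjusted p = 0.0373), and 0 of 3 immune and 0 of 5 epithelial markers were called, also at an unadjusted p under 0.05. The part of these markers in the line differences that follow was not tested.

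OTX2, a factor of the forebrain, midbrain and retina, stood at 3.71 and 3.94 in SK-ES1 shGFP and at 9.34 and 9.61 in A673 shGFP. Both SK-ES1 values lay below the median of all probe sets. The difference was -5.65 (standard error 0.135, adjusted p = 4.41e-09 by limma). Its relative OTX1, a factor of the cerebral cortex, stood at 6.18 and 6.37 in SK-ES1 shGFP and at 5.90 and 6.08 in A673 shGFP, without overlap, and its difference of 0.28 did not pass (adjusted p = 0.131). The 20 nearest measured protein-coding genes of OTX2, 10 on each side, had a median difference of -0.19, and 15 of them were below 0.

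EN1 and EN2, which pattern the midbrain and hindbrain border, were lower in SK-ES1 too. EN2 stood at 4.59 and 4.14 in SK-ES1 shGFP and at 5.76 and 5.61 in A673 shGFP, a difference of -1.32 (adjusted p = 0.000196). EN1 stood at 3.78 and 3.50 in SK-ES1 shGFP and at 4.79 and 4.82 in A673 shGFP, a difference of -1.16 (adjusted p = 0.000297). On every SK-ES1 array EN1 lay below the median of all probe sets. For both genes the lines did not overlap. GBX1 and GBX2, which act on the hindbrain side of that border, differed by -0.22 and -0.17 and were not called.

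The DLX genes lie in pairs along the chromosomes and act in the forebrain, the jaws, the limbs and the skin. In the chromosome 2 pair, DLX2 stood at 6.24 and 5.97 in SK-ES1 shGFP and at 8.62 and 8.90 in A673 shGFP, a difference of -2.65 with a standard error of 0.15 (adjusted p = 6.37e-07). DLX1 stood at 5.97 and 6.04 in SK-ES1 shGFP and at 7.64 and 7.79 in A673 shGFP, a difference of -1.71 (adjusted p = 5.6e-06). Both members of that pair were lower in SK-ES1, while their 20 nearest measured protein-coding genes had a median difference of -0.01 around DLX1 and 0.06 around DLX2, each set including the other gene of the pair. In the chromosome 17 pair both members were higher in SK-ES1. DLX3, known for its part in skin, hair and teeth, stood at 6.04 and 5.98 in SK-ES1 shGFP and at 4.85 and 5.32 in A673 shGFP (difference 0.93, adjusted p = 0.00215), and DLX4 differed by 0.62 (adjusted p = 0.00455). In the chromosome 7 pair, which acts in skull and limb bones, DLX5 was lower by 0.68 in SK-ES1 (adjusted p = 0.00299) and DLX6 had a difference of 0.12 that was not called (adjusted p = 0.45). The genes around the chromosome 17 pair had medians of 0.39 for DLX3 and 0.37 for DLX4.

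The MSX and BARX genes, which act in the face, teeth, stomach and muscle, were called in both directions. BARX2, a factor of muscle and hair follicle development, stood at 3.60 and 3.43 in SK-ES1 shGFP and at 6.30 and 5.90 in A673 shGFP, a difference of -2.58 with a standard error of 0.156 (adjusted p = 9.72e-07). As with OTX2, the SK-ES1 values lay below the median of all probe sets. BARX1, which acts in stomach and tooth mesenchyme, stood at 5.47 and 5.40 in SK-ES1 shGFP and at 6.94 and 6.99 in A673 shGFP, a difference of -1.53 (adjusted p = 9.57e-06). MSX1 and MSX2, both regulators of skull and tooth formation, were higher in SK-ES1 by 0.68 (adjusted p = 0.00785) and 0.53 (adjusted p = 0.0292).

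Among the IRX genes, which lie in a cluster of 3 on chromosome 5 and one of 3 on chromosome 16, the called genes were neighbours on chromosome 16. IRX3 stood at 4.996 and 4.984 in SK-ES1 shGFP and at 7.44 and 7.22 in A673 shGFP, a difference of -2.34 with a standard error of 0.131 (adjusted p = 5.76e-07). IRX5, next to it, differed by -0.68 (adjusted p = 0.00647), with an adjusted p of 0.0605 once SK-ES1 shGFP replicate 1 was left out. IRX6, the third gene of that cluster, differed by 0.12 (adjusted p = 0.617), and IRX1, IRX2 and IRX4 on chromosome 5 lay between -0.08 and 0.09.

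POU4F1, a factor of sensory neurons, stood at 7.16 and 7.13 in SK-ES1 shGFP and at 8.25 and 8.41 in A673 shGFP, a difference of -1.19 (adjusted p = 4.73e-05). POU4F2, known from retinal ganglion cells, stood at 3.940 and 4.003 in SK-ES1 shGFP and at 5.19 and 4.90 in A673 shGFP, a difference of -1.07 (adjusted p = 0.000147). Both of its SK-ES1 shGFP values lay below the median of all probe sets. POU4F3, known from hair cells of the inner ear, had a difference of -0.25 and was not called (adjusted p = 0.148). So all 3 POU4 genes were below 0 in SK-ES1 minus A673, and limma called 2 of them lower, against 17% of all genes.

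NKX6-1, a factor of pancreatic beta cells and motor neuron progenitors, had the largest difference among the called genes that were higher in SK-ES1. It stood at 6.05 and 5.95 in SK-ES1 shGFP and at 4.96 and 4.72 in A673 shGFP, a difference of 1.16 with a standard error of 0.141 (adjusted p = 0.000146). The heart factor NKX2-5 was higher by 0.49 in SK-ES1 (adjusted p = 0.00696), and NKX3-2, which acts in cartilage, was lower by 0.47 (adjusted p = 0.0135). The other NKX genes, NKX2-1 of thyroid and lung, NKX2-3 of gut and spleen and NKX6-2 of oligodendrocytes, lay between -0.18 and 0.16 and were not called. SIX2, a kidney progenitor factor that works with EYA cofactors, was higher by 0.45 (adjusted p = 0.026).

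Among the LIM-homeodomain genes LHX2, a factor of forebrain and eye, was lower in SK-ES1 by 0.53 (adjusted p = 0.00789) on its brighter probe set, while its other probe set differed by 0.19. With the mean over probe sets LHX2 differed by -0.17 and was not called (adjusted p = 0.331 by limma). The other 8 genes of that family lay between -0.13 and 0.36. ONECUT2, a liver and neural factor, was lower by 0.43 (adjusted p = 0.0315), a call that was lost with quantile normalization repeated. None of the 4 EVX and CDX genes was called by limma. At an unadjusted p under 0.05, 2 of them, EVX2 and CDX2, were higher. Of all 14884 genes, 2774 were higher and 3130 lower at that threshold, so nothing particular is read from these 2. NKX2-5 lost its call without A673 shGFP replicate 1 (adjusted p = 0.0609), MSX1 without A673 shGFP replicate 2 (0.0678), NKX3-2 and LHX2 without A673 shGFP replicate 2 or SK-ES1 shGFP replicate 1, and SIX2, MSX2 and ONECUT2 without any 1 of the 4 shGFP arrays.

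The shRING1B arrays give the same comparison of lines in other samples. There, 17 of the 50 genes were called, 8 higher and 9 lower in SK-ES1, against 31.4% of all genes. Of the 24 genes called under either hairpin, 15 were called under both, each in the same direction. OTX2 differed by -5.63 under shRING1B, BARX2 by -2.54, DLX2 by -2.53, IRX3 by -2.16 and DLX1 by -1.60. LHX2, NKX3-2, DLX3, EN1, EN2, POU4F2 and ONECUT2 were called under shGFP and not under shRING1B, and LHX9 and SIX3 under shRING1B and not under shGFP. Whether the line difference itself changed with the hairpin is tested further on, and no gene of the 50 was called there.

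**Figure D2:**
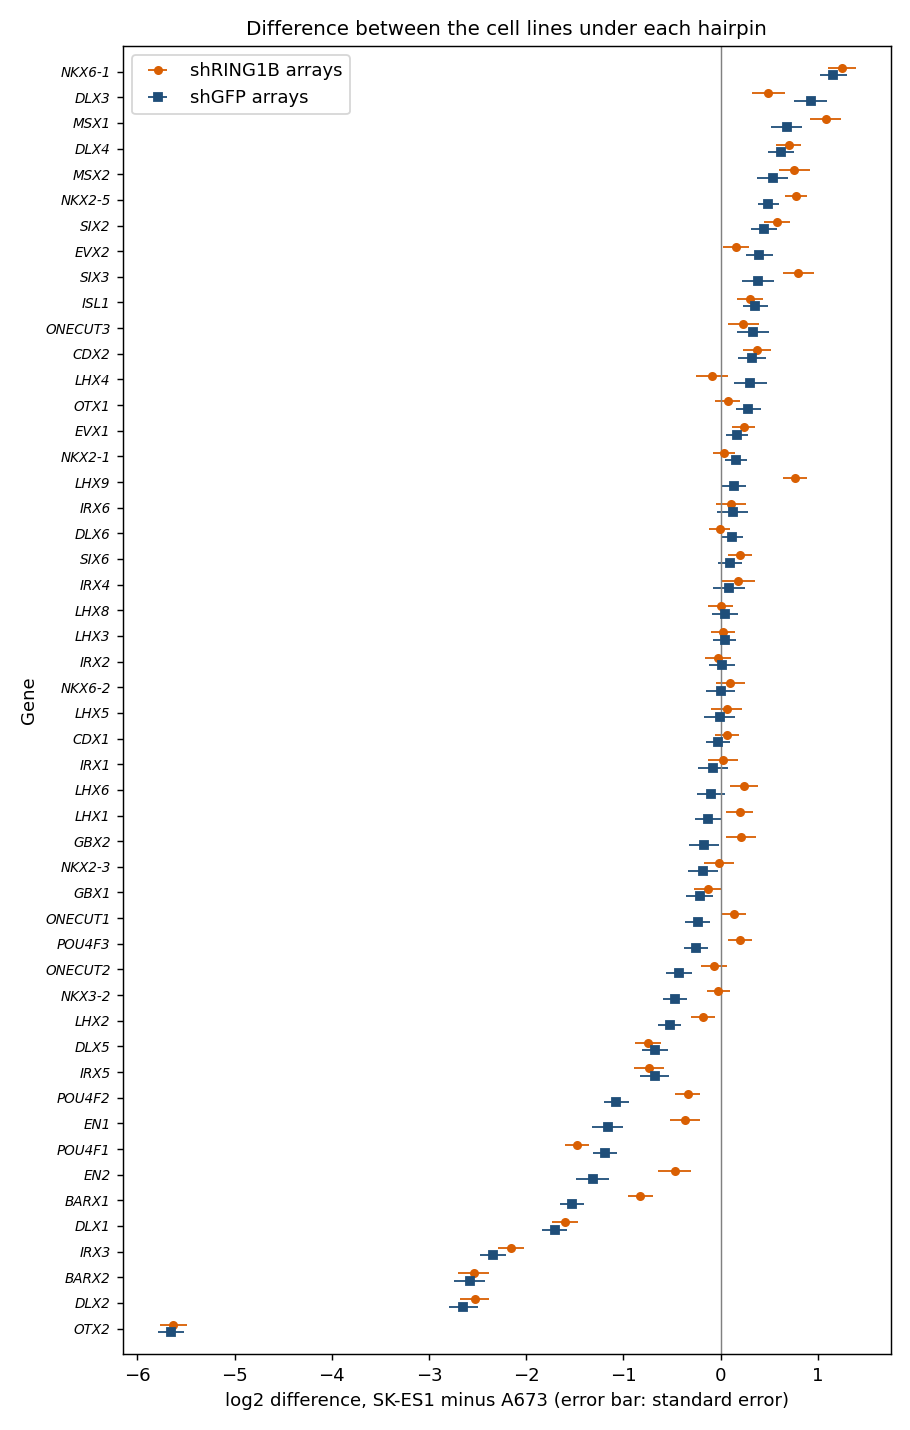
The horizontal axis gives the log2 difference, SK-ES1 minus A673, for each of the 50 genes, ordered by the difference under shGFP. Circles are the shRING1B arrays, squares the shGFP arrays and bars standard errors of the fit. OTX2 lies at -5.63 and -5.65, and EN1, EN2, POU4F2 and BARX1 lie nearer to 0 in the shRING1B arrays.

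In A673 with shRING1B, limma called 0 of the 50 genes higher, against 0.705% of all genes, and LHX9 and BARX1 lower. LHX9, a factor of gonad and neural development, stood at 3.68 and 3.93 in A673 shRING1B and at 4.30 and 4.44 in A673 shGFP. The shRING1B values lay below both shGFP values and below the median of all probe sets. The difference was -0.57 (standard error 0.123, adjusted p = 0.0368 by limma). BARX1 stood at 6.29 and 6.54 in A673 shRING1B and at 6.94 and 6.99 in A673 shGFP, again without overlap. Its difference was -0.55 with a standard error of 0.126 (adjusted p = 0.0427).

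Limma thus called 0 of the 50 genes higher and 2 lower, against 0.705% of all genes higher and 3.04% lower (3.74% in either direction). Both shares are close to those of all genes. At an unadjusted p under 0.05, 1 of the 50 was higher and 12 were lower, against 8.85% and 10.1% of all genes. The median difference was -0.10, with 31 of 50 genes below 0, against a median of 0.01 over all genes, of which 47.8% were below 0. LHX9 lost its call in 10 of 15 alternative settings and BARX1 in 9 of 15. Leaving out any 1 array other than A673 shRING1B replicate 2 ended both calls, with an adjusted p of up to 0.268 for LHX9 and 0.26 for BARX1, both without A673 shGFP replicate 2.

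The genes next in order of p in A673 were EN2, EN1 and NKX3-2. EN2 stood at 4.998 and 5.122 in A673 shRING1B and at 5.76 and 5.61 in A673 shGFP, a difference of -0.62 with a standard error of 0.167 that missed the threshold (adjusted p = 0.0737). EN1 stood at 4.55 and 4.11 in A673 shRING1B and at 4.79 and 4.82 in A673 shGFP, a difference of -0.48 (adjusted p = 0.135). NKX3-2 had a difference of -0.36 (adjusted p = 0.138). In each of these 3 genes the shRING1B arrays lay below the shGFP arrays. Such a separation downwards was seen in 17 of the 50 genes and upwards in 5, against 23.9% and 26% of all genes.

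The single gene above 0 with an unadjusted p under 0.05 was EVX2, which lies beside HOXD13 at the end of the HOXD cluster and acts in limb and spinal cord. It stood at 5.34 and 5.03 in A673 shRING1B and at 4.73 and 4.83 in A673 shGFP, a difference of 0.41 (unadjusted p = 0.0139, adjusted p = 0.14). Its counterpart EVX1, next to the HOXA cluster, had a difference of 0.10 (adjusted p = 0.713). Of the 20 nearest measured protein-coding genes of EVX1, 14 were below 0 and limma called 6 lower, against 3.04% of all genes. The median of the 20 was -0.15.

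By family in A673, the MSX and BARX genes had a median difference of -0.41 with 3 of 4 below 0. The OTX, EN and GBX genes had a median of -0.19 with 5 of 6 below 0, SIX2, SIX3 and SIX6 -0.18 with 3 of 3, and the DLX genes -0.17 with 4 of 6. The ONECUT genes had a median of -0.15 with 3 of 3 below 0, the LIM-homeodomain genes -0.12 with 5 of 9, and the POU4 genes -0.11 with 2 of 3. The IRX genes had a median of 0.10 and the EVX and CDX genes of 0.11, with 4 of 6 and 3 of 4 above 0. The NKX genes had a median of -0.001, whose sign turned under each other normalization tried (up to 0.05). Apart from LHX9 and BARX1, no gene of these families was called.

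The fit gave an interval for the response of each gene, which rests on the spread between these arrays alone. In A673 the 95% confidence intervals of the single genes, not adjusted for the number of genes, ran from -0.995 at the lowest (EN2) to 0.71 at the highest (EVX2), so that none of the 50 included a 2-fold fall or a 2-fold rise.

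The neighbourhood of the 2 called genes differed. LHX9 lies on chromosome 1 between C1orf53 and NEK7, and its 20 nearest measured protein-coding genes had a median A673 difference of -0.13. Of these 20, 12 were below 0, and limma called 3 lower and 1 higher, against 3.04% and 0.705% of all genes. BARX1 lies on chromosome 9 between PHF2 and PTPDC1, and its 20 neighbours had a median of 0.26. Of those, 6 were below 0, and limma called 0 lower and 2 higher.

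**Figure D3:**
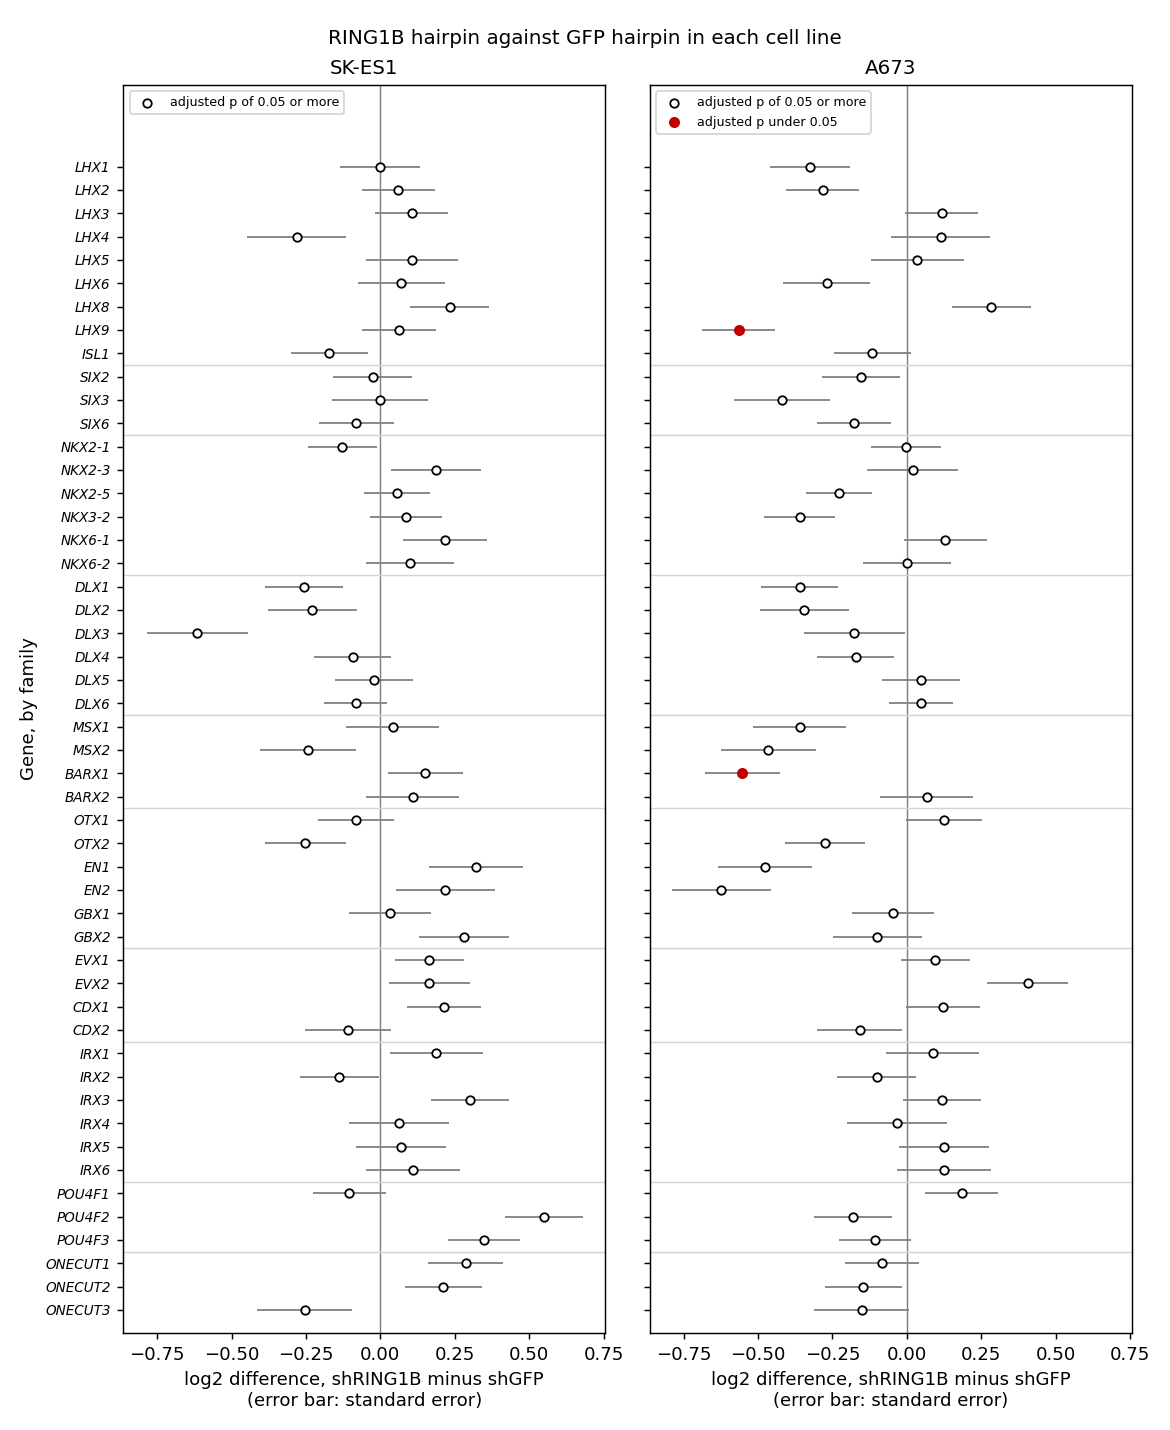
The horizontal axes give the log2 difference, shRING1B minus shGFP, for the 50 genes in family order, with SK-ES1 on the left and A673 on the right. Red points had an adjusted p under 0.05, open points did not, and bars are standard errors of the fit. LHX9 (-0.57) and BARX1 (-0.55) in A673 are the red points, and the A673 values run from -0.62 to 0.41.

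In SK-ES1, limma called 0 of the 50 genes in either direction, against 0.0672% of all genes, all of them lower. At an unadjusted p under 0.05, 4 of the 50 were higher and 1 lower, against 3.23% and 4.13% of all genes. POU4F2 stood at 4.43 and 4.62 in SK-ES1 shRING1B and at 3.940 and 4.003 in SK-ES1 shGFP. The difference of 0.55, with a standard error of 0.131, did not pass (adjusted p = 0.322). DLX3 stood at 5.53 and 5.26 in SK-ES1 shRING1B and at 6.04 and 5.98 in SK-ES1 shGFP, a difference of -0.61 with a standard error of 0.171 (adjusted p = 0.463). Groups did not overlap for either gene.

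The other genes with the smallest p in SK-ES1 were POU4F3 at 0.35 (adjusted p = 0.57), IRX3 at 0.30 (0.663) and ONECUT1 at 0.29 (0.665). POU4F3 stood at 4.85 and 4.99 in SK-ES1 shRING1B and at 4.52 and 4.63 in SK-ES1 shGFP, while POU4F1 had a difference of -0.10. The median over the 50 genes was 0.06, with 30 above 0, against a median of -0.004 over all genes, of which 49% lay above 0. The shRING1B arrays lay above the shGFP arrays in 22 of the 50 genes and below in 9, against 17.8% and 19.3% of all genes. The 95% intervals ran from -0.995 (DLX3) to 0.84 (POU4F2), and none included a 2-fold change. All 6 DLX genes were below 0, with a median of -0.16, as they were under the 3 other normalizations. SIX2, SIX3 and SIX6 were below 0 too, but their median of -0.03 was 0.01 with quantile normalization repeated.

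Averaged over both lines, limma again called 0 of the 50 genes, against 1.36% of all genes, and 3 were higher and 7 lower at an unadjusted p under 0.05, against 5.74% and 8.71% of all genes. The smallest adjusted p was 0.156, for DLX1. DLX1 stood at 5.63 and 5.88 in SK-ES1 shRING1B against 5.97 and 6.04 in SK-ES1 shGFP, and at 7.27 and 7.44 in A673 shRING1B against 7.64 and 7.79 in A673 shGFP. Its mean difference was -0.31. DLX3 followed with -0.40 (adjusted p = 0.165), MSX2 with -0.35 (0.187), EVX2 with 0.29 (0.209) and LHX9 with -0.25 (0.223). DLX1 and OTX2 were the 2 genes whose shRING1B arrays lay below the shGFP arrays in both lines, against 5.38% of all genes. LHX8, EVX2 and CDX1 were the 3 that lay above in both, against 4.6%.

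Some genes moved apart in the lines, though none passed the test of that difference. In LHX9, NKX2-5, NKX3-2, BARX1, EN1 and POU4F2 the shRING1B arrays lay below the shGFP arrays in A673 and above them in SK-ES1, which was 6 of 50 genes against 3.86% of all genes. The reverse pattern was found in 0 of the 50, against 4.84% of all genes. The difference of the hairpin effects, SK-ES1 minus A673, was 0.73 for POU4F2 (adjusted p = 0.124), 0.70 for BARX1 (0.124), 0.63 for LHX9 (0.156), 0.80 for EN1 (0.159) and 0.84 for EN2 (0.16). Limma called 0 of the 50 genes in this comparison, against 0.786% of all genes, and 7 were higher and 0 lower at an unadjusted p under 0.05, against 7.17% and 6.53%. The intervals of 5 genes included a 2-fold difference between the lines, the widest reaching 1.37 for EN2.

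These values also set how far apart the lines stood under each hairpin. EN1 differed between SK-ES1 and A673 by -0.37 under shRING1B (adjusted p = 0.107) and by -1.16 under shGFP. EN2 differed by -0.47 under shRING1B (adjusted p = 0.0541), against -1.32 under shGFP. POU4F2 differed by -0.34 under shRING1B (adjusted p = 0.0741), against -1.07 under shGFP. In SK-ES1, EN1 lay below the median of all probe sets on every array, and POU4F2 on both shGFP arrays. BARX1 was called under both, at -0.83 (adjusted p = 0.000631) and -1.53. LHX9 went the other way, at 0.76 under shRING1B (adjusted p = 0.000952) and 0.13 under shGFP.

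**Figure D4:**
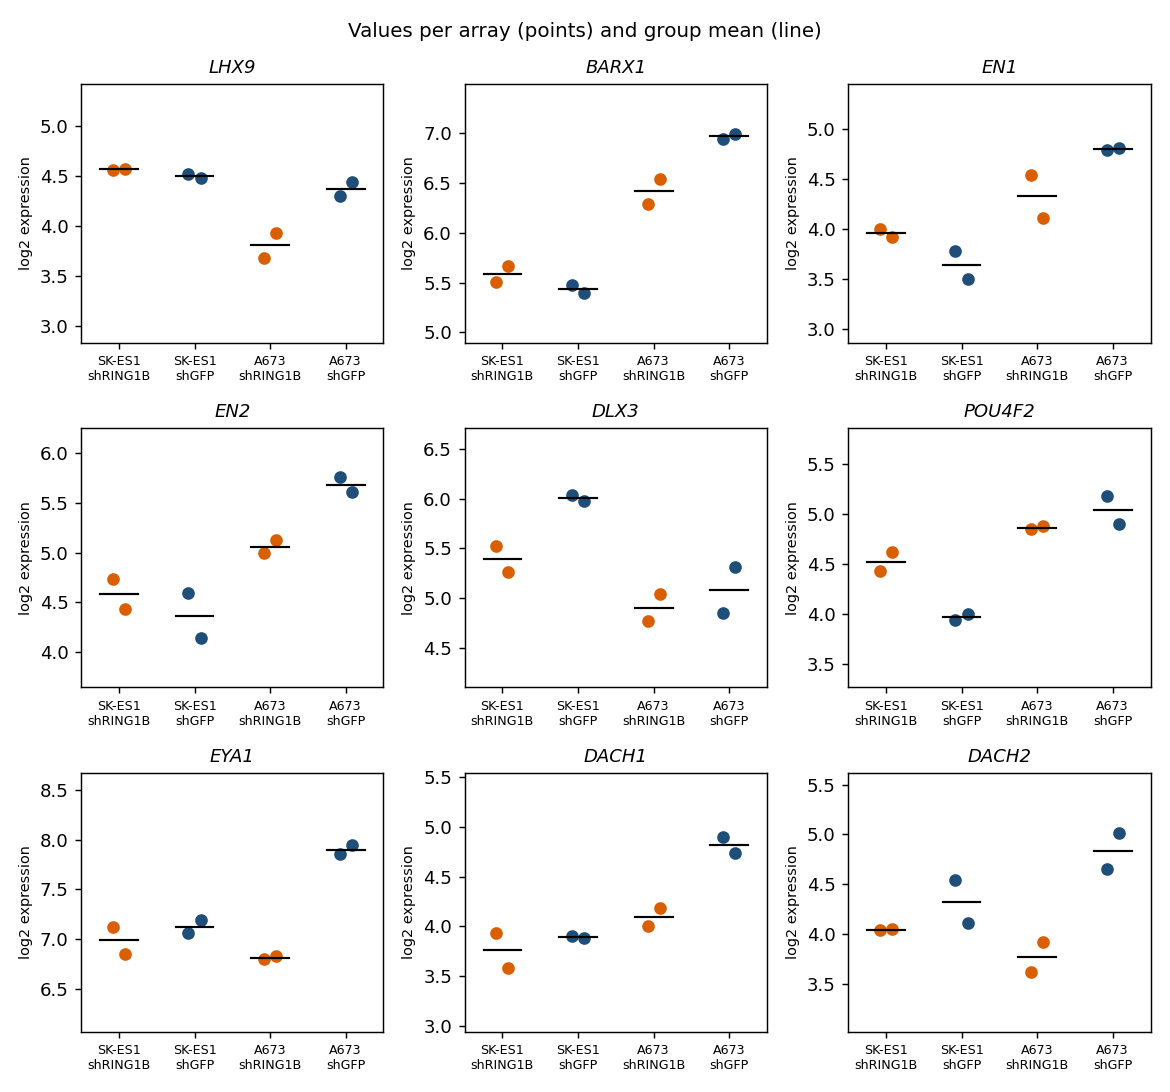
Each panel shows the log2 value of 1 gene in the 8 arrays, with points for arrays and a line for the mean of the group. All panels span 2.6 log2 units. LHX9 and BARX1 are lower in the A673 shRING1B arrays, and so are EYA1, DACH1 and DACH2, which encode cofactors of the SIX2 family.

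A further list held homeobox genes outside the 50, of which 80 of 101 were measured. In A673, 0 rose and 4 fell by limma, against 0.705% and 3.04% of all genes. At an unadjusted p under 0.05, 4 were higher and 14 lower, against 8.85% and 10.1% of all genes, and the median difference was -0.07. The share that fell is near that of all genes, and nothing particular to the list is read from it. The 4 were TLX1 of spleen development with -0.74 (adjusted p = 0.00932), LBX2 with -0.69 (0.0113), NKX2-4 with -0.69 (0.0119) and the mesenchymal factor PRRX1 with -0.74 (0.039), the last named after its value was seen. TLX1 stood at 4.54 and 4.73 in A673 shRING1B and at 5.34 and 5.40 in A673 shGFP. TLX1, LBX2 and NKX2-4 lost their calls without A673 shRING1B replicate 1 or A673 shGFP replicate 2 (adjusted p up to 0.147), and PRRX1 in 8 of 15 settings. In SK-ES1 0 of the 80 were called by limma, against 0.0672% of all genes, with 2 higher and 1 lower at an unadjusted p under 0.05, against 3.23% and 4.13%.

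Cofactors of the LIM-homeodomain and SIX2 families formed a second list of 15 genes, all measured. EYA1, a coactivator of the SIX2 family, fell in A673 with the RING1B hairpin. It stood at 6.80 and 6.83 in A673 shRING1B and at 7.86 and 7.94 in A673 shGFP, a difference of -1.09 with a standard error of 0.125 (adjusted p = 0.00144), and it was called in all 15 settings tried. DACH2 and DACH1, partners of EYA proteins in gene regulation, fell by 1.07 (adjusted p = 0.0117) and 0.73 (0.0241). DACH2 stood at 3.62 and 3.92 in A673 shRING1B and at 4.65 and 5.02 in A673 shGFP, and DACH1 averaged 4.09 ± 0.13 in A673 shRING1B and 4.82 ± 0.12 in A673 shGFP (SD, n = 2 each). Both lost the call without A673 shRING1B replicate 1 or A673 shGFP replicate 2, and DACH1 also without A673 shGFP replicate 1 and with the A673 arrays alone. These were 3 of 15 genes, against 3.04% of all genes, and the median of the list was -0.04. The list was chosen with earlier results of these data known, so no excess is read from that share. In SK-ES1 limma called 0 of the 15 cofactors, also at an unadjusted p under 0.05, with differences of -0.14 for EYA1, -0.28 for DACH2 and -0.14 for DACH1. In the mean of the A673 and SK-ES1 effects, EYA1 (-0.61, adjusted p = 0.00912) and DACH2 (-0.67, adjusted p = 0.0337) were called lower, and so was NKX2-4 of the other homeobox genes (-0.42, adjusted p = 0.0431), which had -0.69 in A673 and -0.14 in SK-ES1. Of all genes, 1.36% were called in that mean. EYA1 lost that call without A673 shGFP replicate 2 or SK-ES1 shRING1B replicate 2, DACH2 in 5 and NKX2-4 in 9 of 14 settings. SIX2, SIX3 and SIX6 themselves had A673 differences of -0.15, -0.42 and -0.18, none of them called.

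Marker genes of other cell types were measured beside the hairpin results too, summed on the linear scale. The 3 measured fibroblast markers (DCN, LUM and THY1, of 6 listed) gave 102.6 to 126.6 in SK-ES1 shRING1B and 139.9 to 147.3 in SK-ES1 shGFP. In A673 they gave 169.5 to 177.2 with shRING1B and 121.7 to 125.1 with shGFP. The sums thus lay lower with shRING1B in SK-ES1 and higher with shRING1B in A673, without overlap in either line. Such separations are common in single genes, with 19.3% of all genes lower in SK-ES1 and 26% higher in A673. On each A673 array 1 of the 3 markers lay above the median of all probe sets, so the sums there rest mostly on 1 gene. The 3 measured immune markers (CD14, CD68 and LYZ, of 7 listed) gave 146 to 182.7 in SK-ES1 shRING1B and 175.3 to 192.6 in SK-ES1 shGFP, and 191.1 to 236.1 in A673 shRING1B and 146 to 172.5 in A673 shGFP. CD14 and LYZ lay below the median of all probe sets on all 8 arrays.

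The 3 endothelial markers measured of 5 gave 35.2 to 39.6 in SK-ES1 shRING1B and 35.5 to 38.3 in SK-ES1 shGFP, and 35.7 to 40.6 in A673 shRING1B and 45.9 to 48.7 in A673 shGFP. The 5 epithelial markers measured of 6 gave 87.4 to 96 in SK-ES1 shRING1B and 86.1 to 88.9 in SK-ES1 shGFP, and 79.6 to 84 in A673 shRING1B and 79 to 87.3 in A673 shGFP. The 6 Ewing sarcoma markers gave 4014 to 4595 in SK-ES1 shRING1B and 3968 to 4371 in SK-ES1 shGFP, and 6919 to 7010 in A673 shRING1B and 6174 to 6526 in A673 shGFP. Limma called no marker of these lists in the hairpin comparison of SK-ES1 or A673. At an unadjusted p under 0.05 it gave 2 markers in SK-ES1, 1 epithelial higher and 1 fibroblast lower. Of all genes, 3.23% were higher and 4.13% lower there. In A673 it gave 5 markers. Of these, 2 Ewing sarcoma, 1 fibroblast and 1 immune marker were higher and 1 endothelial marker lower, against 8.85% and 10.1% of all genes. The part of the markers in the hairpin results was not tested.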

How the data were processed

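From each of the 8 samples, 30 ng of RNA went into an Affymetrix GeneChip reagent kit, per the labels' protocols. The authors deposited a log2 value for every probe set, the scale read from the values. RMA and limma were used by the authors, per the submitters' processing notes. Their versions, the annotation and the genome build are not given in the sources used here. RMA's quantile step makes array distributions alike and would hide a shift common to most genes. No scanner files were used here, so the number of arrays limits the precision.

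A single gene symbol was paired with 16098 of 48144 probe sets (33.4%), several symbols with 0 and none with 32046. The probe set with the highest mean represented each of 14884 genes. LHX2, ISL1 and NKX2-1 had more than 1.

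Limma 3.58.1 in R 4.3.3 was fitted with 4 group means (4 residual and 6 prior degrees of freedom), and all 4 groups share the estimate of spread. Contrasts were shRING1B minus shGFP in each line, their mean and difference, and SK-ES1 minus A673 under shGFP. All tests were two-sided. The script was tested on simulated data. Replicate numbers follow accession order and pair nothing. The line comparison in the shRING1B arrays was added after seeing the data.

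The 50 genes and the further lists were chosen with earlier results of these data known. Named were the called genes, the 5 with the smallest p per contrast, and up to 6 called genes per contrast of the further lists. Neighbours were the 10 measured protein-coding genes on each side in RefSeq order. Alternatives were 3 normalizations, a filter on low values, the mean over probe sets, a trended robust variance, fits of 2 groups only, a 2-fold minimum and leaving out each array.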

Additional observations from a re-analysis of the deposited data

Results flagged for a closer look

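EYA1 and LBX2 responded differently to the RING1B hairpin in the 2 lines, by limma's test of that difference. For EYA1 the hairpin difference was -0.14 in SK-ES1 (7.12 and 6.86 with shRING1B, 7.07 and 7.19 with shGFP) and -1.09 in A673, and the difference between the lines was 0.95 (adjusted p = 0.045). For LBX2 the hairpin difference was 0.19 in SK-ES1 (4.67 and 4.70 with shRING1B, 4.59 and 4.41 with shGFP) and -0.69 in A673 (4.10 and 4.16 with shRING1B, 4.79 and 4.85 with shGFP), and the difference between the lines was 0.88 (adjusted p = 0.0431). Over the 14 alternatives, these calls were lost in 10 for EYA1 and 11 for LBX2, including each of the 8 settings that leave out 1 array. Without A673 shGFP replicate 2 the adjusted p reached 0.189 for EYA1 and 0.182 for LBX2. Neither gene is among the 50 described above, and groups of 2 arrays are too small for a test of single outlying arrays.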

How the results depend on the processing

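Directions of all named genes kept their sign in every alternative run. The median difference of the 50 genes moved by less than the spread between replicate arrays (0.0935) in each. That spread was larger than the size of the median in SK-ES1 (0.06), for the mean effect (-0.04) and between the lines (-0.01). It was close to the size of the median in A673 (-0.10). Staying within it therefore does not show that these medians were stable. In A673 the 2 called genes became 0 at a 2-fold minimum or with the 4 A673 arrays alone, and 1 with quantile normalization repeated, cyclic loess or centred array medians. They became 3, with EN2 added, with a filter on low values (44 of 50 genes kept) or a trended robust variance, and 0 to 2 with 1 array left out. In SK-ES1, for the mean effect and for the difference of effects, the count was 0 in every alternative. Between the lines the 22 became 11 at a 2-fold minimum and 16 to 23 with 1 array left out.

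Over all genes, the A673 count of 557 became 124 at a 2-fold minimum, 213 with the 4 A673 arrays alone, 1052 with a trended robust variance and 101 to 434 with 1 array left out. The SK-ES1 count of 10 became 16 with centred medians, 21 with the filter, 34 with the trended variance and 2 to 7 with 1 array left out. The mean-effect count of 202 became 10 at a 2-fold minimum, 337 with the filter, 481 with the trended variance and 51 to 158 with 1 array left out. The count of 117 for the difference became 179 with the filter, 281 with the trended variance and 0 to 72 with 1 array left out. The line count of 4572 became 1190 at a 2-fold minimum and 3160 to 4674 with 1 array left out. No paired analysis was possible because the labels give no number shared between groups.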
